A study of Homo sapiens with 10 samples.

Results

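The genes described here are 40 germline genes, named by symbol from a fixed list, of 20033 protein-coding genes with a GRCh38 position. They were split into 23 meiotic chromosome genes and 17 genes of the piRNA pathway or of germ cell RNA control, with TEX14, which fits neither class by its role, counted among the 17. All 40 symbols were found in the RefSeq gene table. The study used CUT&RUN, in which an antibody guides a nuclease to its target in permeabilised cells and the released DNA is sequenced, on BJ cells, a human foreskin fibroblast line. The antibody was against H3K9me3 in 3 control samples (non-targeting siRNA) and 3 ERH knockdown samples, and against SOX2 in 2 control and 2 ERH knockdown samples taken 48 hours after infection with Sendai viruses that express the reprogramming factors OCT4, SOX2, KLF4 and c-MYC. Each siRNA was given at 5 nM in 2 rounds that were 3 days apart. The values below come from 1 merged list of H3K9me3 regions for the 3 ERH knockdown samples of fibroblasts that received no reprogramming virus. The control H3K9me3 samples and the SOX2 samples were not analysed here, so neither gain nor loss of H3K9me3 on knockdown can be read from the regions below, and the list holds no measure of how far ERH was depleted.

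In meiosis, cohesin complexes and axis proteins fold each chromosome into loops, the synaptonemal complex zips homologous chromosomes together, and programmed DNA breaks are repaired by recombination. PIWI proteins bind piRNAs, small RNAs of the germline that guide the silencing of transposons, with the help of tudor-domain proteins and RNA helicases. Most of these genes are kept silent in fibroblasts and other somatic cells. H3K9me3, the trimethylation of lysine 9 on histone H3, marks heterochromatin. ERH is a small conserved protein whose fission yeast counterpart takes part in removing meiotic transcripts and in forming heterochromatin at meiotic genes.

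The merged list held 10536 regions, 10507 of them on chromosomes 1 to 22, X and Y. Each region has a whole-number score of the authors, whose unit is not named and whose median is 24180. The list has no values per sample and no read counts, so the depth is unknown and no value below has an error between replicates. A gene was counted as overlapping when its body, from the first to the last annotated base, shared at least 1 bp with a region. Distances run from the nearest edge of the gene body to the nearest edge of a region.

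Regions lay inside 6 of the 40 genes, or 15% (Wilson 95% interval 7.06 to 29.1%, which covers the number of genes only). Among all protein-coding genes 10.5% overlapped a region. The 6 genes were HORMAD2, SMC1B, SYCP1 and DMC1 of the meiotic chromosome genes, 4 of 23 (17.4%, interval 6.98 to 37.1%), and PIWIL4 and ASZ1 of the piRNA and germ cell RNA genes, 2 of 17 (11.8%, interval 3.29 to 34.3%). The intervals of both groups hold the share of all protein-coding genes, and no test between the groups was made. In the 5 of these with a listed start, the regions began at least 11.2 kb after it. PIWIL4 has no listed start, and its region lay 6.48 kb from the nearer end of the gene. None of the 40 genes had a region within 2 kb of a gene start. A count of 0 in 40 limits the share to at most 7.5%, taken as 3 divided by the number of genes. For the 33 genes with a listed start the count was also 0, with a limit of 9.09%. Among protein-coding genes with a listed start 0.783% had such a region, a share that 33 genes cannot tell from 0. For the 7 genes without a listed start (PIWIL2, PIWIL4, HORMAD1, MEIOB, TEX12, TEX14 and TEX15) both ends of the gene body were examined in place of the start.

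Because the marked stretches lie inside the genes, the sequences just before the starts are shown for the genes with a region and a listed start, and for SYCE1, which has the nearest region of the remaining genes. Each is the 250 bases 5′ of the RefSeq start on GRCh38.p14, on the coding strand. Capitals mark TCCCGC, the core of an E2F site, in either orientation (GCGGGA on the other strand). CACGTG, an E-box that reads the same on both strands, was also searched and is in none of these 6 stretches. A place where both motifs share bases would be marked once, and none occurs here.
HORMAD2: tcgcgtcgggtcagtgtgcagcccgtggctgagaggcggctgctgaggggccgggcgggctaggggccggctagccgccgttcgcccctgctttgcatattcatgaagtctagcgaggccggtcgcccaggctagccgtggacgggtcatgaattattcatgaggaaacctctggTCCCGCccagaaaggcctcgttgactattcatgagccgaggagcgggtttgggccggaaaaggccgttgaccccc
SMC1B: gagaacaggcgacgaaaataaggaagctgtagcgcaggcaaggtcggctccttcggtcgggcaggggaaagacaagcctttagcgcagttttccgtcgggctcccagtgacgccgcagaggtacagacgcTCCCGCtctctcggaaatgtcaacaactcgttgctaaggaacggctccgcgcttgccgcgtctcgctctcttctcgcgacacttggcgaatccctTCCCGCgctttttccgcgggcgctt
SYCP1: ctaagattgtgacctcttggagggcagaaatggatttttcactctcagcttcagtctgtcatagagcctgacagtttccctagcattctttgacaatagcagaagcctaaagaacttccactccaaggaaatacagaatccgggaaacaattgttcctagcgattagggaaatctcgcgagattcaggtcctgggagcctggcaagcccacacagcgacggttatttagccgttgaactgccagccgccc
SYCE1: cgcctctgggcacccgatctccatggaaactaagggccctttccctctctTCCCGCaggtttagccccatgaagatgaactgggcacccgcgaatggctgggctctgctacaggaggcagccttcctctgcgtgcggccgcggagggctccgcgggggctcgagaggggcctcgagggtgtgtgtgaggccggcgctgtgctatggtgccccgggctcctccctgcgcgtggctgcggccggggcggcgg
DMC1: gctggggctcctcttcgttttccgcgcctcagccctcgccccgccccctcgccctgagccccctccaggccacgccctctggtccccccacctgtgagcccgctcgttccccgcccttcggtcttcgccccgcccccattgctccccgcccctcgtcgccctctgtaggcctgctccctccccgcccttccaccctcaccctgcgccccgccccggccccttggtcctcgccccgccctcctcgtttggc
ASZ1: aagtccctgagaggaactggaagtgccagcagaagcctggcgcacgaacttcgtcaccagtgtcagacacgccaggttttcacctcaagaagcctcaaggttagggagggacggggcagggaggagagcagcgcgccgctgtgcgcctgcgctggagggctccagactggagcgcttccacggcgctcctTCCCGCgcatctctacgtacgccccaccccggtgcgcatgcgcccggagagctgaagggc
The stretches lie at chr22:30080214-30080463 and chr1:114854613-114854862 on the plus strand, and at chr22:45413600-45413849, chr10:133568292-133568541, chr22:38570184-38570433 and chr7:117427494-117427743 on the minus strand. Those of HORMAD2 and SYCP1 fall inside the annotated gene span, which begins further upstream. None of the 6 stretches was covered by a region. CpG dinucleotides were dense in most of them, with 29 in SMC1B, 23 in DMC1, 22 each in HORMAD2 and SYCE1, 21 in ASZ1 and 8 in SYCP1. SYCP1 also had the lowest share of G and C, 48.8%, and DMC1 the highest, 75.6%.

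The E2F core was found at 2 places in SMC1B, whose first bases lay 120 and 25 bases before the start. It was found in single copy 75 bases before the start of HORMAD2, 60 before ASZ1 and 200 before SYCE1, and in neither DMC1 nor SYCP1. Over all 33 genes with a listed start, 15 (45.5%) held the E2F core in a 250-base stretch, against 36.3% of 15842 protein-coding genes. The E-box was held by 7 of the 33 (21.2%), namely DAZL, DND1, MAEL, STAG3, SYCE1, TDRD1 and TDRD5, against 9.73% of protein-coding genes. In SYCE1 it lies before a further start inside the gene, not in the stretch printed above. Their median ratio of observed to expected CpG was 0.77, against 0.72 for protein-coding genes. Of 36 other germline genes with a listed start, from a list described below, 15 (41.7%) held the E2F core and 3 (8.33%) the E-box. Of 12 widely expressed relatives with a listed start, also described below, 8 (66.7%) held the E2F core and 1 (8.33%) the E-box. No test was made between these shares. A gene with several listed starts was counted when any of its stretches held the motif. A match describes the letters and says nothing of binding.

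The axis and cohesin genes had regions in 2 of 8 cases. HORMAD2, a HORMA-domain protein of the unsynapsed chromosome axis, had 2 regions in its 130 kb body on chromosome 22. The first ran from 30091707 to 30097417 (5711 bp), began 11.2 kb after the listed start and had a score of 47585. The second ran from 30142451 to 30145082 (2632 bp), began 62.0 kb after the start and had a score of 18265. Together they covered 6.43% of the gene, and no other member had more than a single region. SMC1B, the meiosis-specific SMC subunit of cohesin, carried a region of 1991 bp at 45365816 to 45367806 on chromosome 22. It lay 45.8 to 47.8 kb after the start, had a score of 16410 and covered 2.86% of the gene.

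The other 6 axis and cohesin genes had no region in the gene body. STAG3, a cohesin subunit, lay 104 kb from the nearest region, and RAD21L1, a meiotic kleisin that closes the cohesin ring, lay 164 kb away. SYCP2, which builds the lateral element of the synaptonemal complex, was at 203 kb and HORMAD1, the axis partner of HORMAD2, at 210.2 kb. REC8, the other meiotic kleisin, was at 465 kb. SYCP3, the partner of SYCP2 in the lateral element, was among the 3 genes farthest from any region, at 717 kb.

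Of the genes for the centre of the synaptonemal complex, 4 of 5 lay within 100 kb of a region, and their median distance was 22.4 kb. Of all protein-coding genes 43.2% lay within 100 kb, with a median distance of 132 kb. SYCP1, the transverse filament protein, held a region of 2258 bp at 114981552 to 114983809 on chromosome 1, with a score of 18607. It began 127 kb after the start of a 141 kb gene, towards its far end, and covered 1.60%. SYCE1, a central element protein, had a region of 3094 bp at 133571821 to 133574914 on chromosome 10, which lay 3.53 kb upstream of its start, overlapped no annotated gene and had a score of 47879. TEX12, a small central element protein, was 22.4 kb from a region that lay in IL18, and SYCE3 was 83.4 kb away. SYCE2, the partner of TEX12, was at 268 kb. With 5 genes these values are a description, and nothing particular to this role is read from them.

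Among the recombination genes 1 of 9 had a region. DMC1, the meiotic recombinase that pairs a broken end with the homologous chromosome, held a region of 3546 bp at 38541704 to 38545249 on chromosome 22. It lay 24.9 to 28.5 kb after the start, had a score of 36079 and covered 5.81% of the gene. MEIOB, which binds single-stranded DNA together with SPATA22, was 32.9 kb from a region with a score of 50828, and SPATA22 was at 184 kb. PRDM9, the histone methyltransferase that places recombination hotspots, was 111 kb from a region. The break-forming genes SPO11 and MEI1 were at 249 and 209 kb, and the crossover genes MSH5, TEX11 and MSH4 at 301, 399 and 429 kb. STRA8, which switches on meiotic entry, was 47.8 kb from a region. The recombination genes had a median distance of 209 kb.

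Of the 3 PIWI genes, PIWIL4 had a region. PIWIL4, the nuclear PIWI protein that guides DNA methylation of transposons in male germ cells, was the most covered gene, at 10.7% of its 54.1 kb. Its region of 5778 bp at 94609169 to 94614946 on chromosome 11 had a score of 59282, above 90.1% of the unsplit nuclear regions, and overlapped the antisense RNA gene PIWIL4-AS1 as well. It lay 41.8 kb from the low-coordinate end and 6.48 kb from the high-coordinate end, and which end holds the start is not given in the tables used here. PIWIL1, which binds piRNAs of the later male germline, was 40.4 kb from a region, and PIWIL2, which takes part in piRNA amplification, was 125 kb away.

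The partners of the PIWI proteins had a region in 1 of 9 cases. ASZ1, which sits in the germ granules beside mitochondria, held a region of 3185 bp at 117387415 to 117390599 on chromosome 7. It lay 36.9 to 40.1 kb after the start, had a score of 17753 and covered 4.96% of the gene. TDRD5, a tudor-domain protein, was 21.7 kb from a region of 8699 bp with a score of 73799, the highest score among the nearest regions of the genes without overlap. MOV10L1, the helicase that processes piRNA precursors, was at 34.7 kb and TDRD1 at 60.6 kb. TDRD6, TDRD9 and MAEL were at 137, 173 and 227 kb. TEX15, which is needed for piRNA-directed DNA methylation, was at 634 kb, and GTSF1, a cofactor of PIWI slicing, at 1096 kb was farthest of the 40.

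None of the 5 remaining genes, 4 of germ cell RNA control and TEX14, had a region. DND1, an RNA-binding protein of germ cell survival, was at 42.2 kb, DDX4, the germ granule helicase, at 59.6 kb, and DAZL, a translational regulator, at 68.5 kb. BOLL, a relative of DAZL, was at 178 kb, and TEX14, a protein of the bridges between germ cells, at 218 kb.

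**Figure D1:**
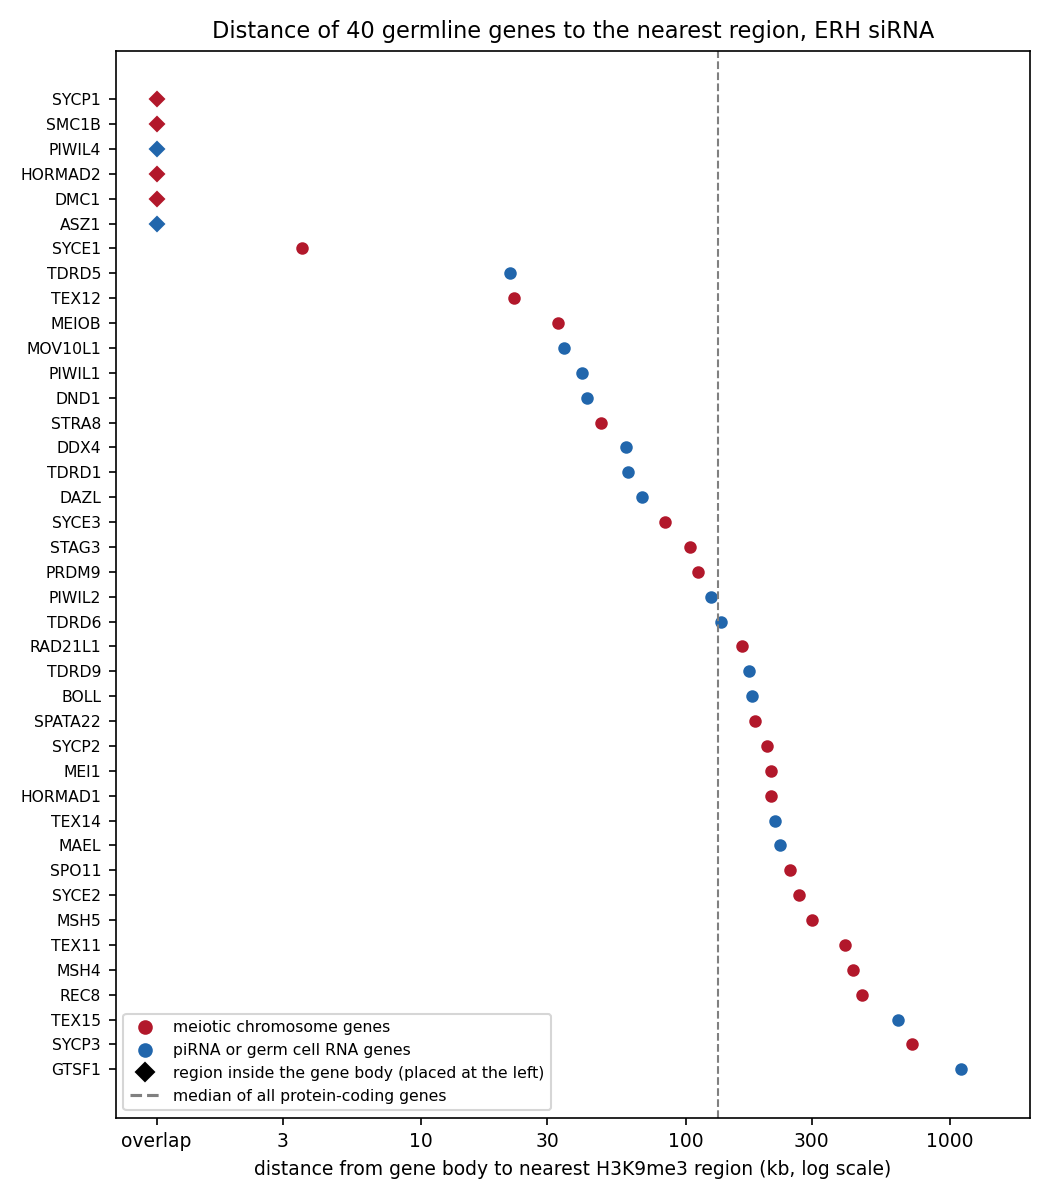
Distance in kb, on a log axis, from each of the 40 gene bodies to the nearest H3K9me3 region, coloured by class, with the 6 overlapping genes as diamonds at the left. SYCE1 at 3.53 kb is nearest without overlap and GTSF1 at 1096 kb farthest, on both sides of the median of all protein-coding genes (132 kb, dashed).

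**Figure D2:**
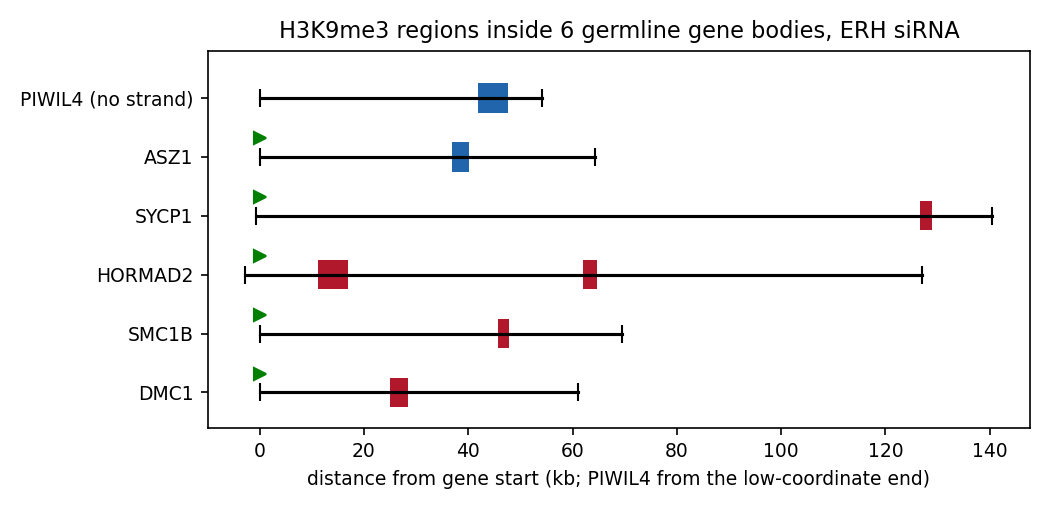
The 6 gene bodies with a region, drawn to scale as lines in kb from the listed start (arrowhead), with regions as boxes coloured by class as in the plot of distances. PIWIL4 has no listed start and is drawn from its low-coordinate end; the box nearest to a listed start is 11.2 kb into HORMAD2.

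Regions within overlapped genes are seldom at the start in general. Of 1739 overlapped protein-coding genes with a listed start, 4.49% had a region within 2 kb of it, and 0 of the 5 overlapped members with a listed start did. Widening the window to 10 kb added SYCE1, 1 of 33 members with a listed start (3.03%), against 5.25% of the 15842 protein-coding genes with one. PIWIL4 also had a region within 10 kb of an end, which may or may not be its start. The coverage was thin in absolute terms. The 7 regions covered 25.1 kb of the 2555 kb in the 40 gene bodies, or 0.98%, against 1.09% of all protein-coding gene length. PIWIL4 alone had at least 10% of its body covered, 1 of 40 genes (2.5%), against 2.4% of protein-coding genes.

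All 6 overlapped genes were long. Of the 21 members of at least 50 kb, 6 (28.6%) overlapped a region, and of the 19 shorter ones none did (a limit of 15.8%). Among protein-coding genes the shares were 25.3% and 3.76%. By length class, 0 of 3 members under 10 kb, 0 of 16 members of 10 to 50 kb, 4 of 15 members of 50 to 100 kb and 2 of 6 members of at least 100 kb overlapped a region. The shares of protein-coding genes in these classes were 0.756%, 5.87%, 13.1% and 35.8%. The members had a median length of 55.9 kb, against 24.1 kb for protein-coding genes. Long genes without a region included TEX11 (397 kb, on chromosome X), TEX14 (135 kb), TDRD9 (124 kb) and MSH4 (116 kb).

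**Figure D3:**
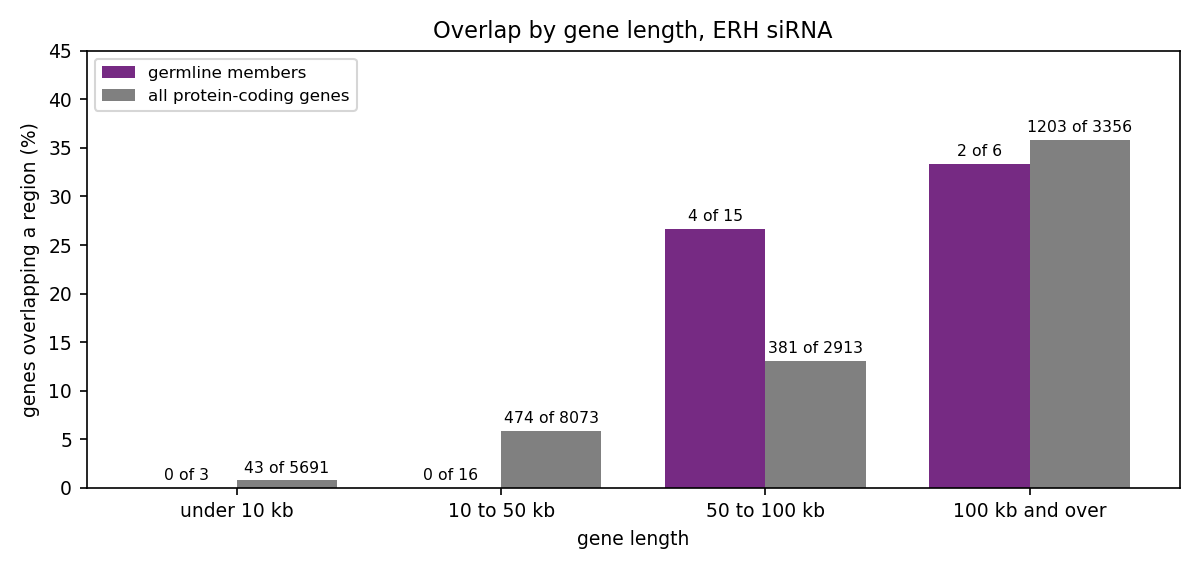
Share of genes, in percent, that overlap a region in each class of gene length, for the 40 members and for all protein-coding genes, with the counts above the bars. Members with a region are found in the classes from 50 kb upwards, and the share of protein-coding genes climbs from 0.756% to 35.8%.

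Pooled over gene lengths, the distances of the 40 genes were near those of protein-coding genes. Within 10 kb of a region lay 7 of 40 (17.5%), against 15.0% of protein-coding genes. Within 50 kb lay 14 (35%), against 30.1%, within 100 kb 18 (45%), against 43.2%, and within 500 kb 37 (92.5%), against 86.9%. The median distance was 118 kb (95% binomial interval of the median 47.8 to 203 kb), against 132 kb. The meiotic chromosome genes had a median of 164 kb (interval 32.9 to 249 kb) and the piRNA and germ cell RNA genes one of 68.5 kb (interval 40.4 to 178 kb). These intervals overlap. By length class the medians differed in both directions. The 6 members of at least 100 kb had a median distance of 196 kb, against 39.2 kb for protein-coding genes of that length. The 15 members of 50 to 100 kb had one of 59.6 kb, against 117 kb, and the 16 members of 10 to 50 kb one of 150.1 kb, against 145 kb. The 3 members under 10 kb had one of 42.2 kb, against 172 kb. Within 500 kb of the gene body the members had a median of 3 regions, from 0 near TEX15, SYCP3 and GTSF1 to 10 near SYCP1, and protein-coding genes also had a median of 3.

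Chromosome 22 held 6 of the 40 genes, and 3 of them (HORMAD2 of 130 kb, DMC1 of 61.0 kb and SMC1B of 69.5 kb) overlapped a region. MOV10L1 (71.7 kb), SYCE3 (11.8 kb) and MEI1 (99.95 kb) on the same chromosome did not. Of the 34 members on other chromosomes 3 overlapped a region (8.82%). Among all protein-coding genes of chromosome 22 the share was 7.32%. That share is for genes of every length, and of protein-coding genes of at least 50 kb on all chromosomes 25.3% overlapped a region. Chromosome 22 was singled out after these values were seen.

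The 7 regions in members were of ordinary length and score. Their lengths ran from 1991 to 5778 bp with a median of 3185 bp, against 3452 bp for the 3245 regions that overlap protein-coding genes. Their median score was 18607 (16410 to 59282), against 24099, and 4 of 7 lay below that median. Per base pair the median score was 8.24 (5.57 to 10.3), against 7.21, and 2 of 7 lay below that median. The regions of PIWIL4 and DMC1 and the first of HORMAD2 had scores of at least 36079, while those of ASZ1, SMC1B and SYCP1 and the second of HORMAD2 had scores of at most 18607, below the median of the list.

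**Figure D4:**
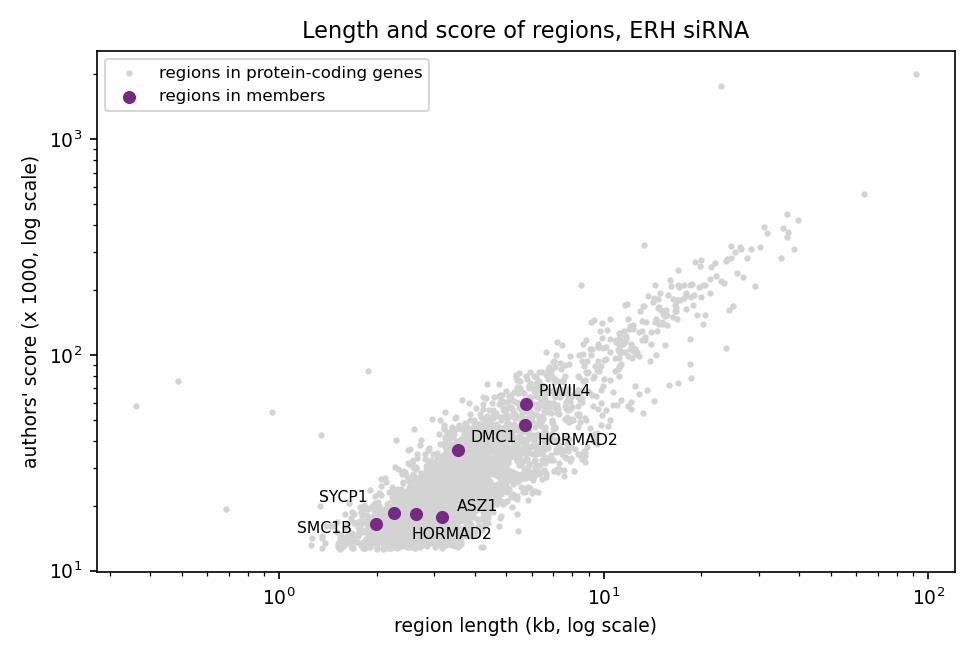
Length in kb and the authors' score (axis labelled in multiples of 1000), both on log axes, of the 3245 regions in protein-coding genes (grey) and the 7 regions in members (purple, with gene symbols). PIWIL4, DMC1 and the longer HORMAD2 region lie higher, and the other 4 regions have scores of 16410 to 18607, below the median of the regions in protein-coding genes (24099).

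A second list held 42 other germline genes of the same pathways, among them PIWIL3, further tudor-domain genes and further recombination genes. Of these 7 overlapped a region (16.7%, Wilson 95% interval 8.32 to 30.6%), against 10.5% of protein-coding genes, and their median distance was 121 kb. MEIKIN, a kinetochore protein of the first meiotic division, had 3 regions over 8.76% of its 139 kb. IHO1, which binds HORMAD1 and promotes DNA breaks, had the largest share covered, 14.9%, by a region of 9972 bp with a score of 107904 on chromosome 3 at 49225254 to 49235225. RNF212, a crossover factor, was covered over 4.01%, SHOC1, another crossover factor, over 2.04%, ANKRD31, needed for DNA breaks, over 1.80%, and HSF2BP, which binds BRCA2 in meiotic recombination, over 1.21%. The regions of RNF212 and SHOC1 had scores of 12773 and 12896, near the lowest score of the list, 12640. HFM1, a helicase of crossover formation, was covered over 0.25% by a region of 362 bp whose score of 57749 gives 160 score units per base pair, above 99.7% of unsplit nuclear regions. All 7 of these genes were longer than 50 kb. The 42 genes had a median length of 47.7 kb, against 24.1 kb for protein-coding genes. Regions overlapped 0 of 4 genes under 10 kb and 0 of 18 genes of 10 to 50 kb. They overlapped 2 of 11 genes of 50 to 100 kb and 5 of 9 genes of at least 100 kb. The shares of protein-coding genes in these classes were 0.756%, 5.87%, 13.1% and 35.8%.

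Another list held 16 relatives of members that most cells use, such as the mitotic cohesin genes and the AGO genes. Of these 2 (12.5%) overlapped a region. STAG1, a counterpart of STAG3, had 3 regions over 2.28% of its 416 kb, and MSH3, a relative of MSH4 and MSH5, had a region over 1.33% of its 222 kb. SMC1A, the counterpart of SMC1B, was 1515 kb from a region, and MOV10, the counterpart of MOV10L1, was 192 kb from one. RAD21, the counterpart of REC8 and RAD21L1, was at 408 kb. The median distance of the 16 was 420.1 kb (interval 192 to 765 kb), against 118 kb for the members, and 2 of 16 lay within 100 kb of a region, against 18 of 40 members. Without the 3 relatives on chromosome X, the median was 379.9 kb. AGO1, AGO3 and AGO4 are neighbours on chromosome 1, so their distances are not independent. Among protein-coding genes 10.5% overlapped a region, 43.2% lay within 100 kb and the median distance was 132 kb. In the share within 100 kb and the median distance the members lay nearer to protein-coding genes than the relatives did. In the share that overlapped a region the relatives (12.5%) lay nearer than the members (15%). No test was made between the lists.

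**Figure D5:**
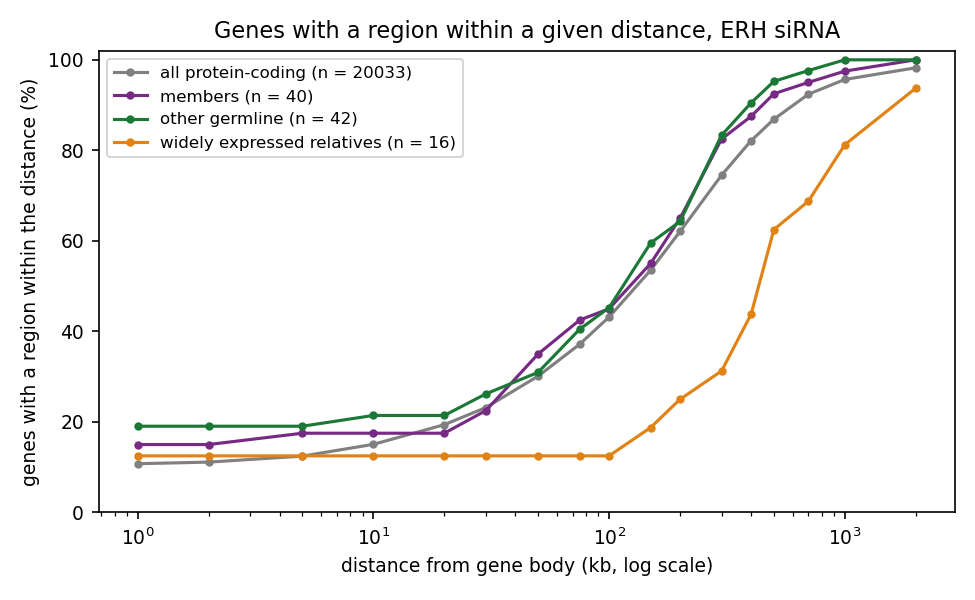
Share of genes, in percent, with an H3K9me3 region within a given distance of the gene body in kb (log axis), for 40 members, 42 other germline genes, 16 widely expressed relatives and all 20033 protein-coding genes. The curves of both germline lists run close to that of all protein-coding genes, reaching 45% and 45.2% against 43.2% at 100 kb, and the relatives stand at 12.5% there.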

How the data were processed

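H3K9me3 CUT&RUN regions of BJ fibroblasts after ERH siRNA were taken from the 1 merged list that the labels attach to all 3 samples of that group. The authors deposited a whole-number score per region without naming its unit, and a running piece number, which is above 1 in 17 rows. Bowtie2 2.3.4.1, SAMtools 1.16.1, deepTools 3.5.0, bedtools 2.27.1 and SEACR 1.3 and the build hg38 are named per the submitters' processing notes, with no role given. The peak calling threshold, any control library and the handling of reads that map to several places are not given in the sources used here.

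Gene positions, starts and upstream sequences came from RefSeq tables of GRCh38.p14. The gene table has no exons, so regions were not assigned to exons or introns. A start was listed for 33 of the 40 members, and positions are 1-based. Overlap, covered share and distance were computed with Python 3.11.15, numpy 2.4.6 and pandas 2.3.3, intervals with scipy 1.17.1 and figures with matplotlib 3.10.9. In a check on simulated intervals, 0 of 500 results differed from a base-by-base count. Rows that are later pieces of a region were left out of scores. Since the list pools its samples, no test between conditions or replicates was made. The study's labels give no more than a number to tell replicates apart.

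The members and the gene lists were chosen with earlier results of these data known. All 40 members are named, and of the other lists those genes that overlap a region. PIWIL3, SPO16, SMC1A, MOV10, RAD21, AGO1, AGO3 and AGO4 of these lists do not overlap a region and are named outside this rule. SPO16 was matched through its table symbol, C1orf146. Upstream stretches are printed for overlapping members, by rule, and for SYCE1, which was added after its values were seen.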

Additional observations from a re-analysis of the deposited data

How the results depend on the processing

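Alternatives gave 50 values for 10 results, of which 38 stayed within 1.5 times the main count or within the interval of the main median. Some of the 38 were fixed in advance, so this count is not a measure of stability. For the median score per base pair, the interval of 5.57 to 10.3 is the full range of the 7 member regions. The median of any subset of these regions lies within it by construction. Restricting the list to scores no lower than its median removes the lower-scoring regions by construction. It left 3 members with a region (DMC1, HORMAD2 and PIWIL4), which are 2 meiotic chromosome genes and 1 piRNA gene. It also left 4 other germline genes (HFM1, HSF2BP, IHO1 and MEIKIN) and 1 relative (STAG1). The median distance of the members was then 229.6 kb. The share of protein-coding genes then fell to 6.32% and their median distance rose to 264 kb. Asking for at least 10% of the gene body left 1 member (PIWIL4), 0 meiotic chromosome genes, 1 piRNA gene, 1 other germline gene (IHO1) and 0 relatives. Of protein-coding genes 2.4% were covered to that extent. Widening the start window to 10 kb gave 2 members in place of 0, SYCE1 by a listed start and PIWIL4 by an end of the gene body. Of protein-coding genes with a listed start 5.25% had a region within 10 kb of it.

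A minimum region length of 2 kb removed SMC1B, whose region has 1991 bp, and left 5 members. A limit of 20 score units per base pair removed HFM1 and left all 6 members, with 10.5% of protein-coding genes overlapping a region. The highest value of a member region was 10.3 score units per base pair, so this limit left the members unchanged by construction. Joining regions within 5 kb also left all 6 members, and the share of protein-coding genes was not computed for it. Extending gene bodies by 10 kb added SYCE1, which gave 7 of 40 members (17.5%), against 15.0% of protein-coding genes. Neither TEX14 nor TEX15 had a region. Moving both to the meiotic class therefore left the counts at 4 meiotic chromosome genes and 2 piRNA and germ cell RNA genes by construction, and is no check on them. Leaving out the 3 relatives on chromosome X was chosen after the data were seen.

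No paired analysis was possible because the list pools the replicates of 1 group. Replicates were not left out in turn for the same reason. Read depth is unknown, and its part in the absence of regions was not tested.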

Other observations

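The nearest regions of the members without overlap were also placed by the genes that they lie in. Of the 34 members without a region, 19 had their nearest region in a protein-coding gene, 6 in non-coding annotation alone and 9 in no annotated gene. Of all 10490 unsplit nuclear regions, 3245 overlapped a protein-coding gene. The regions nearest to other genes were not counted in this way, so nothing particular to the members is read from these counts. The region nearest to HORMAD1, at 150931112 to 150932978 on chromosome 1, lay in SETDB1, which encodes an H3K9 methyltransferase, and had a score of 12988, near the lowest score of the list, 12640. For STAG3 the nearest region lay in ZNF3 and for SYCE2 in ZNF791, both zinc finger genes. These were the only 2 of the 34 nearest regions that lay in a gene with a ZNF symbol. The share of all regions in such genes was not computed here, and no link is read from SETDB1, ZNF3 or ZNF791. The nearest region was upstream of the gene in 15 of the 28 members with a listed start and beyond its far end in 13. This split was not counted for other protein-coding genes.

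PIWIL3, the PIWI gene outside the 40 members, had a region of 3263 bp at 24714786 to 24718048 on chromosome 22, 0.986 kb from the low-coordinate end of its body. It was the single gene of the 42 other germline genes with a region within 2 kb of a start or, where no start is listed, of either end. Which end holds its start is not given in the tables used here. These genes were chosen after their values were seen.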
